A study of Mus musculus with 15 samples.

Results

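The 10 genes described here are H19, Igf2, Dlk1, Meg3, Peg3, Mest, Cdkn1c, Grb10 and Igf2r, which are imprinted, and Zfp57, which encodes a factor that keeps imprints. They were followed through carcinogen-induced mouse liver tumours and normal liver. All 10 were found by symbol among the 23284 genes of the count table, and their levels were taken from all 15 libraries. They were picked with their levels in the 3 groups of these libraries already known, so those levels and their fold changes are a description and carry no test. Tests are given for other imprinted genes and related lists, but these lists too were written with earlier results of these data known.

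The libraries hold poly-A RNA of bulk tissue. Of the 12 tumours, 6 came from control mice with floxed Hmgb1 alleles (labelled Hgmb1fl/fl), in which the gene is intact. The other 6 came from floxed mice that also carry Albumin-Cre (labelled Hgmb1Dhep), a transgene that deletes Hmgb1 in hepatocytes and bile duct cells and leaves it in the other cells of the liver. Hmgb1 encodes a chromatin protein that dying cells release as an alarm signal. Both kinds of mice had received the mutagen diethylnitrosamine (DEN) at 25 mg/kg into the peritoneum on day 15 after birth. Carbon tetrachloride (CCl4), a liver toxin, followed at 0.5 ul/g in corn oil every week for 15 weeks, beginning in week 8. The 3 normal livers were from C57Bl/6 control mice, with no treatment named. Treatment and tumour state therefore go together in the comparisons with normal liver and cannot be told apart. The labels give no strain for the tumour-bearing mice, no age at sampling, no litter or batch, and no word on whether tumours shared a mouse, so p-values measure only the spread between these samples.

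An imprinted gene is expressed mainly from the allele of a single parent, set by DNA methylation that is laid down in the germ line at a control region. ZFP57 binds such methylated control regions and brings in TRIM28 and with it histone and DNA methyltransferases, which keep the mark through the early embryo. Many imprinted genes are active in fetal liver and silenced after birth, H19, Igf2 and Dlk1 among them, and several are known to return in liver cancer. H19 and Igf2 sit in a cluster with opposite imprints, as do Meg3 and Dlk1, and many imprinted genes act on growth.

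Promoter sequences of RefSeq (GRCm38.p6, 250 bases before to 50 bases after a transcript start) were available for 8 of the 10 genes, with none for H19 or Cdkn1c. The 4 below are shown because those of Meg3, Mest and Grb10 hold in capitals the letters TGCCGC, the hexamer ZFP57 recognises when methylated, or their reverse complement GCGGCA, and because Zfp57 is itself the binding factor. They lie at chr12:109540746-109541045 (plus strand) for Meg3, chr6:30737800-30738099 (plus strand) for Mest, chr11:12037371-12037670 (minus strand) for Grb10 and chr17:37000913-37001212 (plus strand) for Zfp57.
Meg3: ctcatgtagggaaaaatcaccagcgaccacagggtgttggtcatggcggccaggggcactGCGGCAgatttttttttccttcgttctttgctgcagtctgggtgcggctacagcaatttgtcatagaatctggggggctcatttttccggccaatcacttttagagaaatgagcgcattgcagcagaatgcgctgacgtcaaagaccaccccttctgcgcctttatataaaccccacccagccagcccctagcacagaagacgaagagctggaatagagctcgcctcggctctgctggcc
Mest: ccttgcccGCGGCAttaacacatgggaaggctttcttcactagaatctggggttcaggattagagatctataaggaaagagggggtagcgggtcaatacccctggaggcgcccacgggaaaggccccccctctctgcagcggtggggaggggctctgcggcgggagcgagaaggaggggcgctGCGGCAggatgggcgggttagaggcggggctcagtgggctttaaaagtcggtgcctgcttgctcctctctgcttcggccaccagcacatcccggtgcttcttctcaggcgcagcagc
Grb10: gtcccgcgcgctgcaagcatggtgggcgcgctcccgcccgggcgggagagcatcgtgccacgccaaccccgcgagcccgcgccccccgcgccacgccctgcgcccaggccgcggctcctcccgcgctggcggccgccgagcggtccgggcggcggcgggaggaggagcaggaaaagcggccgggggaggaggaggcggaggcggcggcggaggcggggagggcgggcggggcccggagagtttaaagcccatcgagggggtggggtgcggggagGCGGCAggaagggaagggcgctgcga
Zfp57: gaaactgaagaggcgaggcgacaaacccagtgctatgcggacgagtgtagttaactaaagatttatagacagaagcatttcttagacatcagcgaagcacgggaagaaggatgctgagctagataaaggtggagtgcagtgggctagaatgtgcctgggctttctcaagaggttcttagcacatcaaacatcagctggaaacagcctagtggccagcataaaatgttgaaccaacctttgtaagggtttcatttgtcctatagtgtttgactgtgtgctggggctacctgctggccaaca
Igf2 holds the motif too, in 1 of its 4 promoters (chr7:142661222-142661521, minus strand), which is not printed. With both strands searched for this motif alone, 5 of 17 promoters of the 8 genes held it (29.4%), against 3813 of 32851 promoters of the whole table (11.6%). The 5 come from 4 separate stretches, since 2 Mest promoters overlap. The motif includes a CpG, and the 5 have 13 to 45 CpG each against a median of 7 over all promoters. A match is a description of letters, and neither methylation nor binding was measured. The first exon of H19 is also the source of a microRNA, miR-675, whose 2 mature forms are shown with the seed (bases 2 to 8) in capitals, because they are the known small RNA product of the gene whose mean level differed most between groups.
mmu-miR-675-5p: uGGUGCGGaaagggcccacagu
mmu-miR-675-3p: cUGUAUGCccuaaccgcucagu
The gene row of this microRNA had 0 counts in all 15 libraries, which were made from long poly-A RNA. H19 counts below are of the long transcript.

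Libraries held 18973246 to 30929442 counts. Levels are in CPM, the read count of a gene scaled to a common library total, and a gene with 0 counts in a library could still be present at up to 0.11 to 0.169 CPM there by counting error. Hmgb1 was at 23.3 to 31.8 CPM in floxed tumours, 9.59 to 17.8 CPM in Hmgb1-deleted tumours and 19.1 to 30.7 CPM in normal livers, so its level went with the labels in every tumour. Hmgb1-deleted tumours 2 and 5 are known from earlier work on these data to stand apart from the other 4, and tumours 3, 4 and 6 to lie nearest to normal liver, so values without them are given where they change a result. Hepatocyte markers were abundant in all 15 libraries, at a summed level of 72030 CPM or more, but Alb made up most of that sum and single markers differed. By the test used below for all genes, Tat and Cps1 were lower in both tumour kinds than in normal liver. Apoa1 and Serpina1a were higher in floxed tumours. The other 4 of the 8 markers did not pass in floxed tumours, and 6 did not pass in Hmgb1-deleted tumours. In bulk RNA, fewer cells of a type and less RNA per cell cannot be told apart.

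H19, a maternally expressed long RNA of fetal liver and muscle, was high in floxed tumours and low in most Hmgb1-deleted tumours. Its level in floxed tumours ranged from 10.4 to 239 CPM with a median of 74.3 CPM. In Hmgb1-deleted tumours it ranged from 0.377 to 18.4 CPM with a median of 1.2 CPM, and in the 3 normal livers it was at 0.203, 0.163 and 0.295 CPM. Every tumour of either kind lay above every normal liver, and the tumour groups overlapped only through Hmgb1-deleted tumour 1 (18.4 CPM), which exceeded floxed tumour 6 (10.4 CPM). Means were 89.8 CPM ± 79.7 (SD, n = 6), 3.96 CPM ± 7.07 (SD, n = 6) and 0.220 CPM ± 0.068 (SD, n = 3). The fitted log2 difference was -4.46 ± 0.99 (SE) for Hmgb1-deleted against floxed tumours, 8.67 ± 1.2 for floxed tumours against normal liver and 4.18 ± 1.46 for the Hmgb1-deleted ones against the same livers. Without Hmgb1-deleted tumour 1 the first became -6.31 and the last 2.32. The normal livers rest on 4 to 6 H19 counts each, and Hmgb1-deleted tumour 4 on 7 counts (95% counting interval 0.151 to 0.776 CPM), so small differences at this level were not detectable.

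Markers of skeletal muscle, another tissue rich in H19, were raised in a single library. The 7 muscle markers summed to 70.8 CPM in floxed tumour 3 and to 0.325 to 1.24 CPM in the other 14 libraries. All 7 had counts among floxed tumours, while Myh4 and Myh2 were at 0 in Hmgb1-deleted tumours, and Acta1, Ckm, Myh4 and Myh2 were at 0 in normal livers. H19 stood at 87.5 CPM in floxed tumour 3, and 2 floxed tumours without the muscle signal were higher, tumour 5 at 99.4 CPM and tumour 4 at 239 CPM. Without floxed tumour 3 the log2 difference between tumour groups was again -4.46. The part of muscle in the H19 level of tumour 3 or of any other library was not tested.

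**Figure D1:**
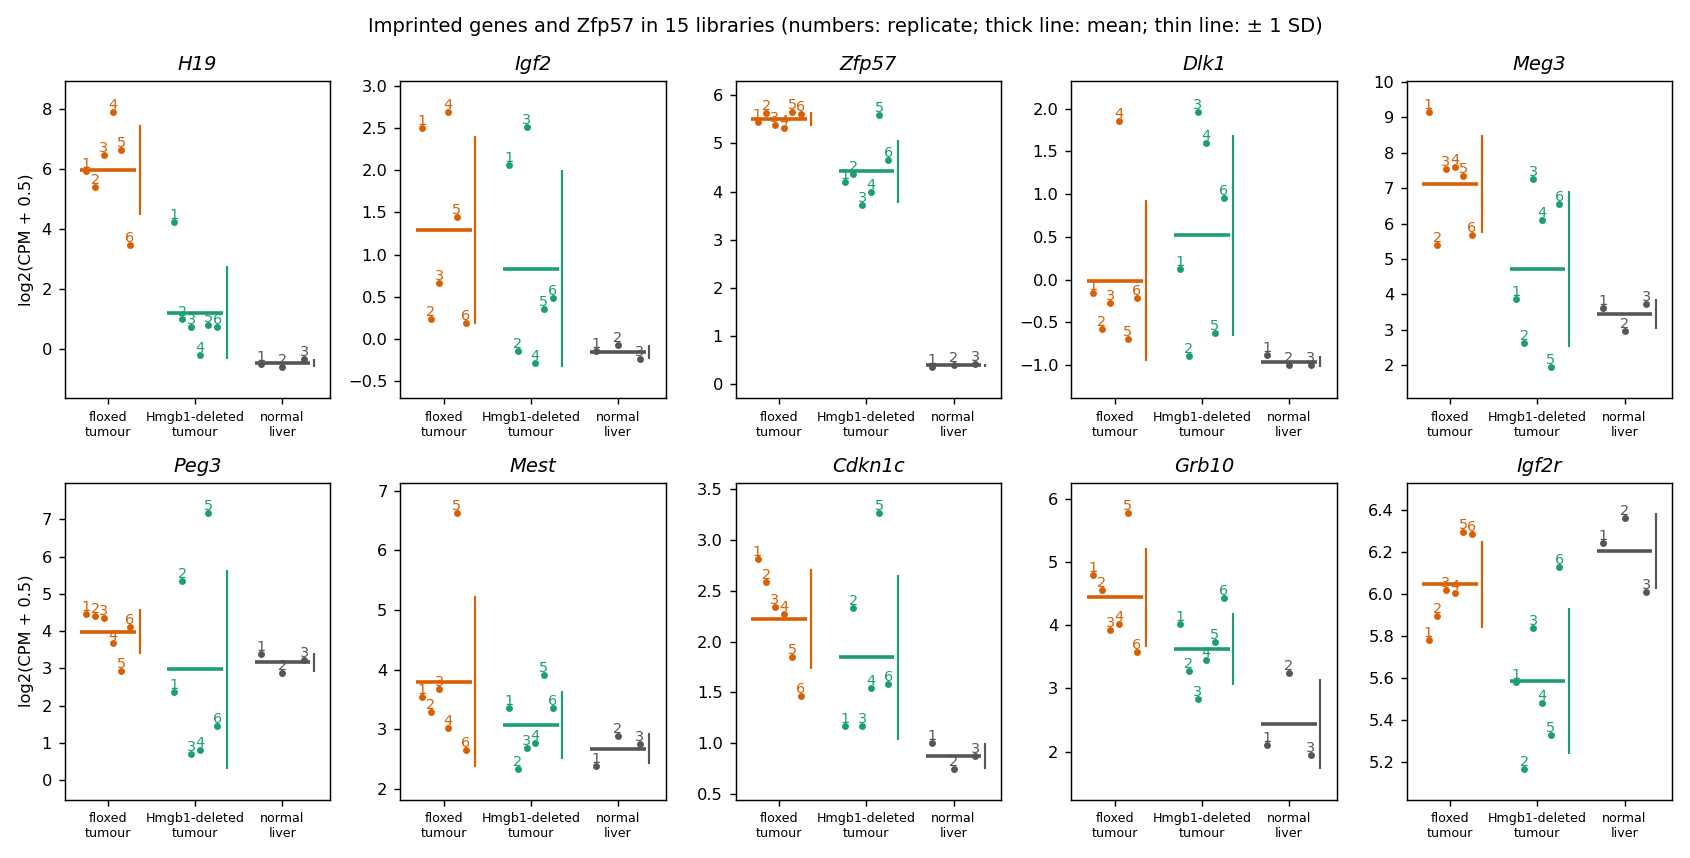
Levels of the 10 genes in each of 15 libraries, as log2(CPM + 0.5) on the vertical axis, with the 3 groups along the horizontal axis. Points are libraries with their replicate number, thick bars are group means and thin lines are ± 1 SD over 6, 6 and 3 libraries. H19 and Zfp57 in every tumour sit above every normal liver. H19 in Hmgb1-deleted tumour 1 (18.4 CPM), Dlk1 in floxed tumour 4 (3.11 CPM) and Mest in floxed tumour 5 (97.7 CPM) sit apart from their groups. Peg3 in Hmgb1-deleted tumours 2 and 5 (40.2 and 142 CPM) sits above the rest of that group.

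Igf2, the paternally expressed growth factor that shares its enhancers with H19, was far less changed. It ranged from 0.636 to 5.97 CPM in floxed tumours (median 1.66 CPM) and from 0.323 to 5.21 CPM in Hmgb1-deleted tumours (median 0.843 CPM). Normal livers were at 0.406, 0.448 and 0.345 CPM. All 6 floxed tumours and 4 of 6 Hmgb1-deleted tumours exceeded every normal liver, and the tumour groups overlapped almost fully. Fitted log2 differences were -0.46 ± 0.77 (SE) between tumour groups, 2.70 ± 0.84 for floxed and 2.23 ± 0.97 for Hmgb1-deleted tumours over normal liver. These rest on few counts, 347 and 258 over all tumours of each kind and 28 over the normal livers.

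The pair diverged most clearly in the ratio of their counts within a library, a quantity that depends on the length of both transcripts and so is compared only between libraries. H19 counts per Igf2 count ranged from 11.8 to 80.3 in floxed tumours (median 42.2) and from 0.224 to 5.02 in Hmgb1-deleted tumours (median 1.42). They were 0.500, 0.364 and 0.857 in normal livers. The tumour groups did not overlap, but the ratio was chosen with these levels known and no share over other gene pairs was computed. In these counts 5 of 6 Hmgb1-deleted tumours exceeded all normal livers. Hmgb1-deleted tumour 4 rests on 7 H19 and 6 Igf2 counts and normal liver 3 on 6 and 7, so counting error covers the difference between these libraries. In Hmgb1-deleted tumour 3, Igf2 was at 5.21 CPM with H19 at only 1.17 CPM, whereas floxed tumour 1 had a like Igf2 level of 5.17 CPM with H19 at 61.1 CPM.

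**Figure D2:**
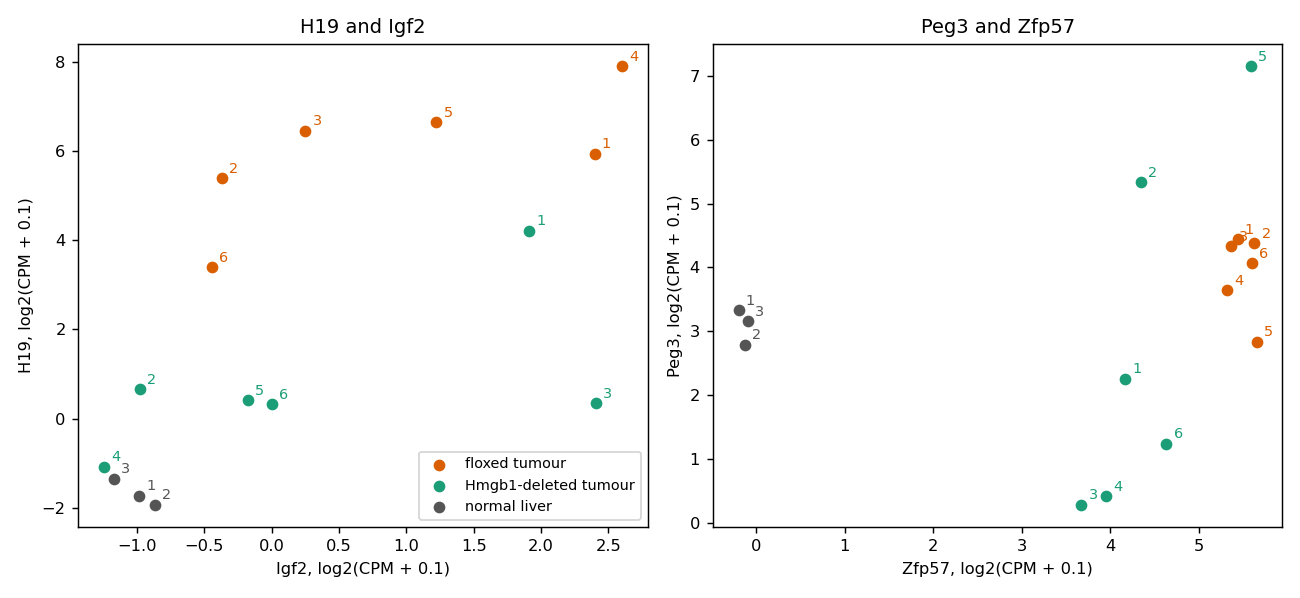
Left, H19 against Igf2, and right, Peg3 against Zfp57, each axis as log2(CPM + 0.1), with 1 point per library labelled by replicate number and coloured by group. In the left panel floxed tumours lie above Hmgb1-deleted tumours at similar Igf2 (11.8 to 80.3 H19 counts per Igf2 count against 0.224 to 5.02), and in the right panel Hmgb1-deleted tumours 2 and 5 stand at 40.2 and 142 CPM Peg3, above the other 4.

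Dlk1, a paternally expressed membrane protein of fetal hepatoblasts, was near the detection limit in normal liver, with 1 count in normal liver 1 and 0 in the other 2. Floxed tumours ranged from 0.118 to 3.11 CPM (median 0.342 CPM), with tumour 4 far above the other 5. Hmgb1-deleted tumours ranged from 0.0372 to 3.40 CPM (median 1.011 CPM), with tumours 3, 4 and 6 at 3.40, 2.53 and 1.44 CPM. The tumour groups overlapped throughout. Dlk1 missed the filter on low counts in both comparisons that include floxed tumours, and no fold against normal liver is given because a single count stands behind it.

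Meg3, the maternally expressed long RNA next to Dlk1, was abundant in tumours and varied widely among them. It ranged from 41.9 to 573 CPM in floxed tumours (median 175 CPM), with tumour 1 far above the rest. In Hmgb1-deleted tumours it ranged from 3.32 to 152 CPM (median 40.8 CPM), and in normal livers it was at 11.7, 7.29 and 12.9 CPM. All floxed tumours exceeded all normal livers, whereas among Hmgb1-deleted tumours 1, 3, 4 and 6 were above them and 2 and 5 below them at 5.65 and 3.32 CPM. Means were 202 CPM ± 194 (SD, n = 6), 55.9 CPM ± 59.7 (SD, n = 6) and 10.6 CPM ± 2.94 (SD, n = 3). Log2 differences were -1.82 ± 0.89 (SE) between tumour groups, 4.24 ± 0.86 for floxed and 2.40 ± 1.15 for Hmgb1-deleted tumours relative to normal liver. Without Hmgb1-deleted tumours 3, 4 and 6 the first became -4.71 and the last -0.42. These tumours held the highest Meg3 levels of their group, so leaving them out set the direction of both shifts in advance, and nothing is read from them. The levels by library already show that the Hmgb1-deleted group was not uniform in this gene.

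Other RNAs of the cluster followed Meg3 from library to library. Rian, a long RNA that hosts small nucleolar RNAs, stood at 0.266 to 0.506 counts per Meg3 count over all 15 libraries, a 1.9-fold range, while Meg3 itself ranged from 3.32 to 573 CPM. Mirg, a microRNA host transcript further along the cluster, stood at 0.0112 to 0.0606 counts per Meg3 count. Of all genes searched, Rian had the pattern nearest to Meg3 over the 15 libraries, and AF357359 came next. Rian rose in floxed tumours against normal liver by 4.63 ± 0.90 (SE) on the log2 scale (edgeR adjusted p = 0.00211) and Mirg by 5.45 ± 1.196 (adjusted p = 0.00402). Rtl1, a paternally expressed retrotransposon-derived gene of the cluster, had no count in any normal liver and 0.493 CPM on average in floxed tumours, at least 11.4-fold higher against a floor of 3 counts over the group. Floxed tumour 1 held 45 of its 60 counts in floxed tumours, and without that library the bound was 3.33-fold. Dlk1 did not share this order. Its highest libraries were Hmgb1-deleted tumour 3 and floxed tumour 4, and in floxed tumour 1, where Meg3, Rian and Rtl1 peaked, it was at 0.398 CPM.

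**Figure D3:**
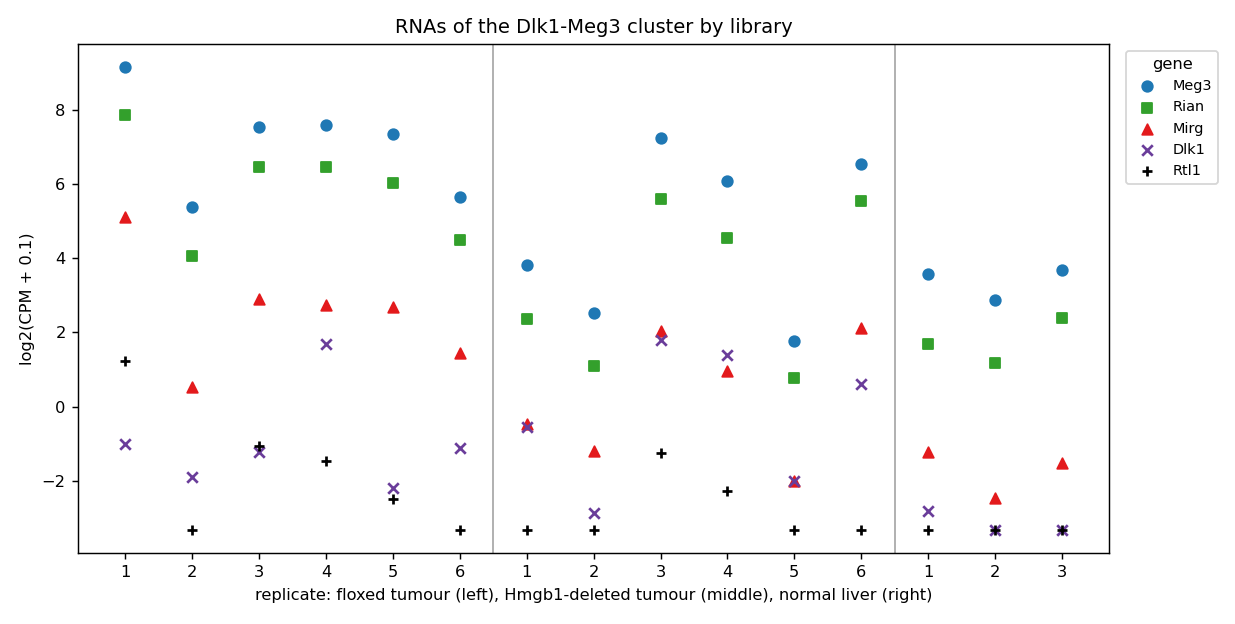
Levels of Meg3, Rian, Mirg, Dlk1 and Rtl1 in each library as log2(CPM + 0.1), with libraries along the horizontal axis in the order floxed tumours, Hmgb1-deleted tumours and normal livers. Meg3, Rian and Mirg rise and dip in parallel from library to library (Rian at 0.266 to 0.506 counts per Meg3 count), and Dlk1 follows another order, with 0.398 CPM in floxed tumour 1 where Meg3 is at 573 CPM.

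Zfp57 separated tumours from normal liver with the least spread among floxed tumours. All 6 floxed tumours lay between 39.8 and 50.1 CPM (median 45.7 CPM), a 1.26-fold range, and normal livers were at 0.772, 0.815 and 0.837 CPM. Hmgb1-deleted tumours ranged from 12.6 to 47.9 CPM (median 19.03 CPM). In that group tumours 1, 2, 3, 4 and 6 lay below every floxed tumour, at 24.7 CPM or less, and tumour 5 lay within the floxed range at 47.9 CPM. Means were 45.3 CPM ± 4.47 (SD, n = 6), 23.1 CPM ± 12.8 (SD, n = 6) and 0.808 CPM ± 0.033 (SD, n = 3). Log2 differences were -0.94 ± 0.27 (SE) between tumour groups, 5.80 ± 0.17 for floxed and 4.86 ± 0.52 for Hmgb1-deleted tumours relative to normal liver. Without Hmgb1-deleted tumours 2 and 5 the first became -1.37, and without tumours 3, 4 and 6 it became -0.67. Tumour 5 held the highest Zfp57 level of its group. Leaving out tumours 2 and 5 therefore set the direction of that shift in advance, and nothing is read from it.

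Among the rows beside Zfp57, the GABA receptor subunit gene Gabbr1 was at 16.04 CPM ± 8.12 and 11.1 CPM ± 2.53 in floxed and Hmgb1-deleted tumours (SD, n = 6 each) against 4.45 CPM ± 0.389 (SD, n = 3) in normal liver. It rose by 1.86 ± 0.37 and 1.33 ± 0.22 (SE) on the log2 scale (edgeR adjusted p = 0.00223 and 0.00335). H2-M5, a class Ib MHC gene and the nearest row on the other side of Zfp57, held 46, 26 and 1 counts in the 3 groups (0.353, 0.167 and 0.0164 CPM on average), too few in normal liver for a fold. Mog, which lies between Zfp57 and Gabbr1, had 24 counts over all 15 libraries.

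Peg3, a paternally expressed zinc finger gene, split the Hmgb1-deleted tumours more widely than any of the other 9 genes split them. It was at 142 CPM in tumour 5 and 40.2 CPM in tumour 2, and at 4.68, 1.12, 1.24 and 2.26 CPM in tumours 1, 3, 4 and 6, a 128-fold range. Floxed tumours ranged from 7.05 to 21.6 CPM (median 18.3 CPM) and normal livers were at 9.95, 6.80 and 8.81 CPM. The 2 high Hmgb1-deleted tumours exceeded all other libraries, and the other 4 lay below all of them, normal livers included. Log2 differences were 1.004 ± 1.02 (SE) between tumour groups, 0.94 ± 0.32 for floxed and 1.95 ± 1.55 for Hmgb1-deleted tumours relative to normal liver. Without tumours 2 and 5 the first became -2.79 and the last -1.84, a turn in direction. Usp29, which shares a promoter region with Peg3, had 2 counts in all, both in Hmgb1-deleted tumour 5. Tet1, an enzyme that oxidises methylated DNA, was also high in tumours 2 and 5 alone, at 3.05 and 2.35 CPM against 0.346 CPM or less in the other 13 libraries, and it is named after its values were seen.

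Mest, a paternally expressed hydrolase-like protein of embryonic mesoderm, was high in a single tumour. Floxed tumour 5 was at 97.7 CPM, and the other 5 floxed tumours lay at 5.77 to 12.2 CPM. Hmgb1-deleted tumours ranged from 4.53 to 14.4 CPM (median 8.02 CPM) and normal livers were at 4.71, 6.88 and 6.25 CPM, so all 3 groups overlapped. The log2 difference of -1.47 ± 0.67 (SE) between tumour groups became -0.10 without floxed tumour 5, and that of 2.02 ± 0.96 for floxed tumours against normal liver became 0.62. Against normal liver Hmgb1-deleted tumours differed by 0.53 ± 0.35. Exons of Mest overlap those of Copg2 on the other strand, so without a stated strand setting their reads cannot be told apart.

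Floxed tumour 5 also had the highest levels of stellate cell, fibroblast and endothelial markers. The 11 stellate cell and fibroblast markers, all detected in each group, summed to 1679 CPM there, 212 to 354 CPM in the other floxed tumours, 198 to 535 CPM in Hmgb1-deleted tumours and 173 to 240 CPM in normal livers. The 8 endothelial markers, also all detected, were highest in the same library at 463 CPM against 133 to 268 CPM in the other 14. The part of these cells in the levels of Mest and Grb10 was not tested.

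Grb10, an adaptor protein that restrains insulin and IGF receptor signalling, was above normal in all but 1 tumour. It ranged from 11.4 to 54.0 CPM in floxed tumours (median 19.4 CPM), highest in tumour 5, and from 6.59 to 21.0 CPM in Hmgb1-deleted tumours (median 11.6 CPM). Normal livers were at 3.82, 9.001 and 3.35 CPM. Log2 differences were -0.92 ± 0.37 (SE) between tumour groups, 2.18 ± 0.55 for floxed and 1.24 ± 0.43 for Hmgb1-deleted tumours relative to normal liver. Floxed tumours did not overlap with normal livers, and Hmgb1-deleted tumour 3 fell inside the normal range.

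Cdkn1c, a maternally expressed inhibitor of cyclin-dependent kinases, exceeded every normal liver in all 12 tumours. It ranged from 2.27 to 6.51 CPM in floxed tumours (median 4.45 CPM) and from 1.75 to 9.07 CPM in Hmgb1-deleted tumours (median 2.46 CPM), and normal livers were at 1.503, 1.18 and 1.33 CPM. The tumour groups overlapped, with Hmgb1-deleted tumours 5 and 2 the highest of their group at 9.07 and 4.53 CPM. Log2 differences were -0.22 ± 0.42 (SE) between tumour groups, 1.70 ± 0.35 for floxed and 1.49 ± 0.58 for Hmgb1-deleted tumours relative to normal liver. Without Hmgb1-deleted tumours 2 and 5 the first became -1.06 and the last 0.66. Without tumours 3, 4 and 6 the first turned to 0.22.

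Igf2r, the maternally expressed receptor that clears IGF2 and sorts lysosomal enzymes, was the only one of the 10 genes with no tumour above every normal liver. It was at 54.5 to 77.99 CPM in floxed tumours (median 64.0 CPM), 35.4 to 69.4 CPM in Hmgb1-deleted tumours (median 45.7 CPM) and 75.2, 81.8 and 63.9 CPM in normal livers. Of the Hmgb1-deleted tumours, 5 lay below all normal livers. Log2 differences were -0.42 ± 0.16 (SE) between tumour groups, -0.15 ± 0.15 for floxed and -0.58 ± 0.20 for Hmgb1-deleted tumours relative to normal liver, and with upper-quartile scaling the middle value was 0.03. Airn, the paternal antisense RNA that starts within Igf2r, rose in floxed tumours against normal liver by 2.11 ± 0.42 (SE) on the log2 scale (edgeR adjusted p = 0.00223). Its level was 2.80 CPM ± 1.24 (SD, n = 6), 1.85 CPM ± 1.29 (SD, n = 6) and 0.647 CPM ± 0.006 (SD, n = 3) in the 3 groups, and part of its reads may belong to Igf2r.

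**Figure D4:**
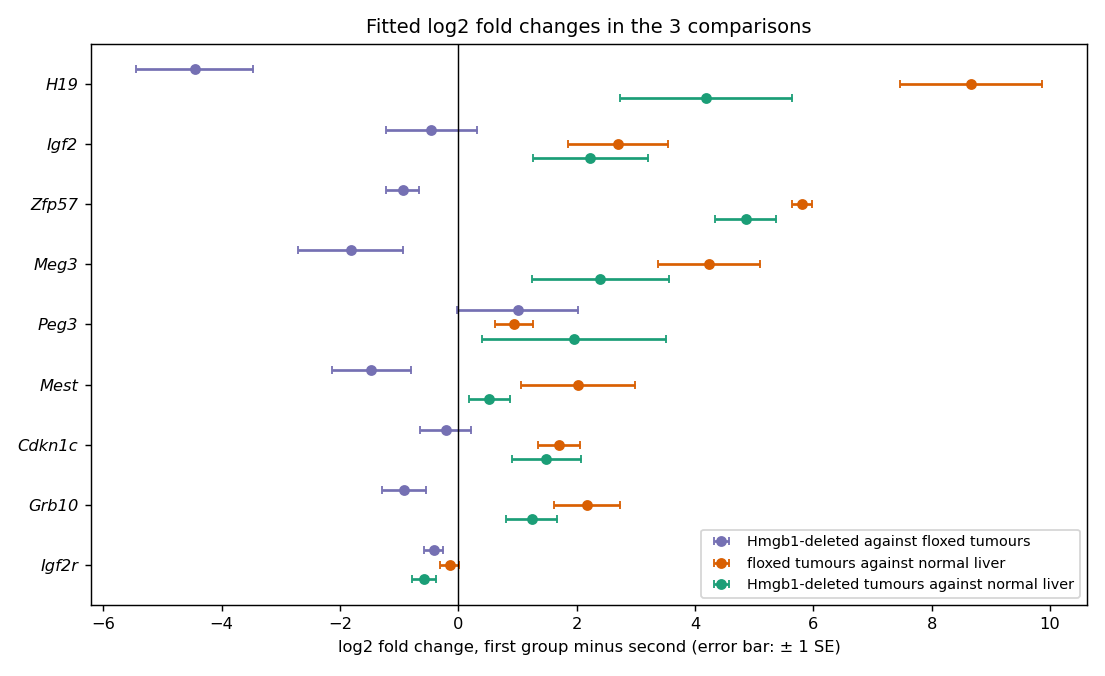
Fitted log2 fold changes with ± 1 SE for 9 of the genes in the 3 comparisons; Dlk1 is left out because normal livers held 1 count of it. The horizontal axis is the first group minus the second. H19 lies farthest from 0 in the comparison of the tumour groups (-4.46) and, with Zfp57, in those with normal liver, where the SE of Zfp57 in floxed tumours (0.17) is far smaller than that of H19 (1.2).

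Set against all genes, edgeR's quasi-likelihood test with Benjamini-Hochberg adjustment at 0.05 put 1 of the 9 members tested, H19, past the threshold between Hmgb1-deleted and floxed tumours, where 7.78% of all genes tested were past it and 3.33% lay past it on the lower side. That call ended without tumours 2 and 5 and without tumours 3, 4 and 6, and Zfp57 passed in 7 of 21 alternatives, RLE and upper-quartile scaling, DESeq2 and the fit of all 15 samples among them. None of the members had tumour groups that did not overlap, against 4.93% of all genes. For floxed tumours against normal liver 7 of 9 were past the threshold (all but Mest and Igf2r, all higher), against 48.7% of all genes and 24.9% on the higher side, and 6 of 9 did not overlap, against 46.3%. For Hmgb1-deleted tumours against normal liver 5 of 10 were past it (H19, Zfp57, Dlk1 and Grb10 higher, Igf2r lower), against 34.7% of all genes, 18.1% higher and 16.6% lower, and 3 of 10 did not overlap, against 37.6%. In this last comparison Zfp57 passed in all 19 alternatives, but Dlk1 in 13, H19 in 11, Igf2r in 7 and Grb10 in 6, and without normal liver 1 or 3 Zfp57 alone passed. Floxed tumours kept their calls in all 17 for H19, Zfp57, Meg3, Cdkn1c and Grb10, whereas Igf2 passed in 14 and Peg3 in 9. Since the members were chosen from these contrasts, nothing is read from these counts. The 3 comparisons share samples in pairs.

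Other imprinted genes, a list of 62 genes in the table beyond the 9 above, were tested in the same fits. Between Hmgb1-deleted and floxed tumours 40 were testable, of which 2 rose, 1 fell and 37 did not pass, 7.5% against 7.78% of all genes, with a median log2 difference of -0.04 against 0.02 over all genes. Zrsr1, a splicing factor, rose by 0.55 ± 0.13 (SE, edgeR adjusted p = 0.0197), from 19.4 CPM ± 1.66 to 28.0 CPM ± 5.16 (SD, n = 6 each). Ddc, the decarboxylase that makes dopamine and lies beside Grb10, rose by 1.52 ± 0.38 (adjusted p = 0.027), from 22.96 CPM ± 11.98 to 64.7 CPM ± 30.4. Tssc4 fell by 0.59 ± 0.15 (adjusted p = 0.0287), from 23.3 CPM ± 5.55 to 15.1 CPM ± 2.104. Each of the 3 lost its call in some alternative, Zrsr1 in 3 of 21, Ddc in 5 of 21 and Tssc4 in 9 of 21. Without Hmgb1-deleted tumour 4 the count over the list was 1.

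Against normal liver the list changed in both directions. In floxed tumours 12 of 43 testable genes rose and 9 fell, 48.8% against 48.7% of all genes. The placental growth suppressor Phlda2, which lies beside Cdkn1c, rose by 4.55 ± 0.65 (SE) on the log2 scale (edgeR adjusted p = 0.000311), from 0.183 CPM ± 0.142 (n = 3) to 4.30 CPM ± 2.65 (n = 6). Slc38a4, an amino acid transporter of hepatocytes, fell by 2.18 ± 0.31 (adjusted p = 0.000287), and Ascl2, a transcription factor of the placenta, was at 0 in normal livers and at least 14.2-fold higher in floxed tumours. Impact rose by 1.007 ± 0.16 (adjusted p = 0.00064), and Copg2, Casd1 and Ddc fell by 0.73, 1.34 and 2.38 (adjusted p = 0.000595, 3.55e-05 and 0.000668). In Hmgb1-deleted tumours 5 of 43 rose and 8 fell, 30.2% against 34.7% of all genes, and 8 changed in all when the 15 samples were fitted together. There Phlda2 (3.42 ± 0.59, adjusted p = 0.00385), Tspan32 (2.07 ± 0.40, adjusted p = 0.00547) and Kcnq1ot1 (1.13 ± 0.26, adjusted p = 0.0105) rose. Tspan32 and Kcnq1ot1 had also passed in floxed tumours, at 2.145 and 1.048. Impact passed in Hmgb1-deleted tumours too, at 0.58, a call lost in 9 of 19 alternatives. Slc38a4, Copg2, Casd1 and Sgce fell by 1.40, 0.77, 1.11 and 0.96 (adjusted p = 0.02, 0.00164, 0.000879 and 0.0158), calls lost in 3 of 19 alternatives for Slc38a4, 5 for Sgce and 1 for Copg2. Gnas passed in neither comparison (log2 differences of 0.36 and 0.19).

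Some listed genes of a block on mouse chromosome 6 were high in the same 3 floxed tumours. Sgce, a paternally expressed sarcoglycan, was at 21.7, 19.6 and 23.8 CPM in floxed tumours 1, 4 and 5, and the remaining 3 held 1.75 to 2.81 CPM, with Hmgb1-deleted tumours at 2.01 to 3.87 CPM and normal livers at 4.97 to 6.80 CPM. Peg10, the adjoining retrotransposon-derived gene, was at 4.27, 3.07 and 5.17 CPM in the same 3 libraries, and the remaining floxed tumours held 0.490 to 0.636 CPM. Ppp1r9a, another gene of the block, was at 42.1, 21.1 and 19.4 CPM there and at 2.98 to 9.61 CPM in the other floxed tumours, but normal livers held 17.4 to 33.04 CPM, so the high tumours were not set apart from normal liver. Other listed genes of the block did not divide the floxed tumours in this way, Casd1 lying at 16.9 to 24.6 CPM, Pon2 at 57.1 to 71.3 CPM and Pon3 at 34.5 to 61.7 CPM. Peg10 and Ppp1r9a are named after their values were seen. None of Sgce, Peg10 and Ppp1r9a passed the test between tumour groups, Sgce with a log2 difference of -2.04 ± 0.63 (SE).

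**Figure D5:**
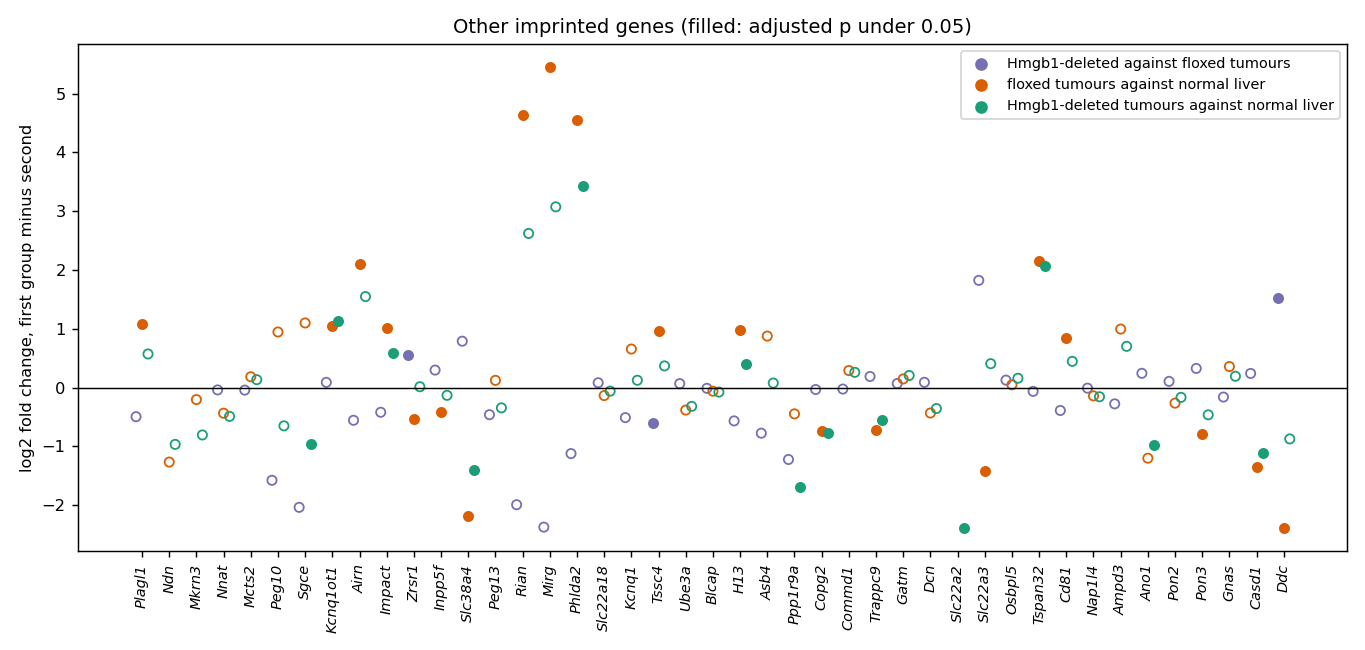
Fitted log2 fold changes, first group minus second, of the testable imprinted genes beyond the 9 members in the 3 comparisons, with filled points where the adjusted p was under 0.05. Ascl2, which had no count in normal liver, is left out. Only 3 points are filled for the tumour groups, and Rian, Mirg and Phlda2 stand highest against normal liver.

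Factors that set or keep methylation marks were examined as a list, since ZFP57 works through them. Of 22 such genes in the table, 19 were testable and none passed the edgeR test between Hmgb1-deleted and floxed tumours (1 at an unadjusted p under 0.05, and 1 by DESeq2), where 7.78% of all genes did. Trim28, the partner of ZFP57, differed by 0.12 ± 0.14 (SE) on the log2 scale, and Dnmt1, which copies methylation at replication, by -0.24 ± 0.22; both are named for their role. Dnmt3a, which sets new methylation, was at 40.7 CPM ± 9.28 in floxed and 28.4 CPM ± 5.58 in Hmgb1-deleted tumours (SD, n = 6 each; log2 difference -0.49 ± 0.16, adjusted p = 0.0768) and is named after its values were seen. Against normal liver 5 of 19 changed in floxed tumours and 4 of 19 in Hmgb1-deleted tumours, 26.3% and 21.1% against 48.7% and 34.7% of all genes. Uhrf1, which guides DNMT1 to replicating DNA, rose by 3.12 ± 0.42 and 2.79 ± 0.55 (edgeR adjusted p = 0.000211 and 0.00597), and Hells, a remodeller, by 1.68 ± 0.44 and 1.38 ± 0.39 (adjusted p = 0.01 and 0.0235). The 8 cycling-cell markers, all detected, summed to 21.6 to 115 CPM in floxed tumours, 28.2 to 157 CPM in Hmgb1-deleted tumours and 7.39 to 9.16 CPM in normal livers, and their part in these rises was not tested. Setdb1, the methyltransferase that TRIM28 recruits, fell by 0.34 ± 0.10 in Hmgb1-deleted tumours (adjusted p = 0.0232), a call lost in 7 of 19 alternatives, with values down to -0.048. In floxed tumours Setdb1 passed as well, with a log2 difference of -0.41, a call lost in 6 of 17. Tet2 rose by 0.63 ± 0.19 in floxed tumours (adjusted p = 0.0173), a call lost in 2 of 17.

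A list of repressors and binders of fetal liver RNAs, with 8 testable genes, changed in 5 in each tumour group against normal liver (62.5%, against 48.7% and 34.7% of all genes). H19 and Afp are held down in adult liver by ZHX2, and its relatives ZHX1 and ZHX3 were listed with it. All 3 ZHX genes fell against normal liver in both comparisons, Zhx1 by 1.19 ± 0.13 and 0.93 ± 0.13 (SE, edgeR adjusted p = 7.76e-05 and 0.002) and Zhx2 by 1.07 ± 0.24 and 0.89 ± 0.17 (adjusted p = 0.00399 and 0.00509). Zhx3 fell by 1.69 ± 0.23 in Hmgb1-deleted tumours (adjusted p = 0.00172). Afp, the fetal albumin, rose by 6.08 ± 0.37 and 4.40 ± 1.03 (adjusted p = 2.43e-06 and 0.0118), and the oncofetal surface protein Gpc3 by 7.83 ± 0.99 and 6.20 ± 0.97 (adjusted p = 0.00016 and 0.00271). Between the tumour groups none of the 8 testable genes of this list passed (4 at an unadjusted p under 0.05, and 2 by DESeq2), and Zhx2 stood at 11.7 CPM ± 3.26 and 13.1 CPM ± 1.98 (SD, n = 6 each). Afp and Gpc3, which are among the changed genes in both comparisons with normal liver, were known from earlier results of these data. The share of this list past the threshold is therefore not read as a result.

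The IGF axis, in which IGF2 and its receptor act, differed between tumour groups in 3 of 13 testable genes, 23.1% against 7.78% of all genes. This list was also written with earlier results of these data known, so its shares past the threshold are not read as a result. Igf1, the postnatal growth factor of liver, rose in Hmgb1-deleted tumours by 1.52 ± 0.26 (SE, edgeR adjusted p = 0.00665), from 133 CPM ± 41.9 to 377 CPM ± 131 (SD, n = 6 each), with normal livers at 727 CPM ± 56.8 (SD, n = 3). Igfals, which stabilises circulating IGF complexes, rose by 1.76 ± 0.28 (adjusted p = 0.00545), and the binding protein Igfbp1 fell by 2.203 ± 0.53 (adjusted p = 0.0243), a call lost without Hmgb1-deleted tumour 4. Against normal liver 8 of 13 changed in floxed tumours and 5 of 13 in Hmgb1-deleted tumours, 61.5% and 38.5% against 48.7% and 34.7% of all genes. Igf1 and Igfals were lower in tumours in both comparisons (log2 differences of -2.45 and -0.94, and of -3.65 and -1.91). Igfbp1 rose in floxed tumours by 3.28 ± 0.59 (edgeR adjusted p = 0.00129). Irs2, an insulin receptor substrate, fell in Hmgb1-deleted tumours by 2.36 ± 0.40 (edgeR adjusted p = 0.0037). In floxed tumours Irs2 passed as well, with a log2 difference of -2.49.

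Rows next to the members were looked at by taking the 3 nearest on each side. Between tumour groups 18 of 49 neighbours were testable and only Ddc passed, 5.56% against 7.78% of all genes. In floxed tumours against normal liver 11 of 17 changed, 64.7% against 48.7% of all genes, and in Hmgb1-deleted tumours 6 of 19, 31.6% against 34.7%. Mrpl23 beside H19, Wars beside Dlk1 and Fignl1 beside Grb10 were among those that rose in floxed tumours, and Copg2 beside Mest was among those that fell.

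Likeness in pattern was measured as the root-mean-square difference between z scores of log2(CPM + 0.5) over the 15 libraries, in SD units, for 12687 other genes with a mean of at least 1 CPM (12688 for Dlk1). Identical patterns score 0. Meg3 had the nearest match of the 10 genes, Rian at 0.11 and AF357359 at 0.264. Zfp57 was nearest to the laminin gene Lama5 at 0.197 and to Il28ra at 0.235, and H19 to Adm2 at 0.357 and the calcium channel gene Cacna1c at 0.379. Lama5 was at 122 CPM ± 27.5 (SD, n = 6), 73.2 CPM ± 26.7 (SD, n = 6) and 7.13 CPM ± 0.926 (SD, n = 3) in the 3 groups. Mest was nearest to Adm at 0.3 and Esam at 0.366, Grb10 to Kcnk6 at 0.295 and Tfec at 0.346, and Peg3 to Gmds at 0.411 and Ccnd3 at 0.43. Cdkn1c was nearest to Serf1 at 0.37 and Rundc3b at 0.402, and Igf2r to Nrd1 at 0.391 and 4933426M11Rik at 0.397. The loosest matches were those of Dlk1, to Gm12250 at 0.567 and Igtp at 0.597, and Igf2, to Zfp105 at 0.584 and Thoc6 at 0.699, both genes with few counts.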

How the data were processed

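Poly-A RNA of 12 tumours and 3 normal livers was sequenced from TruSeq libraries, per the labels' protocols. As deposited, the values are raw read counts, 1 row per gene symbol, to which the authors applied no normalization. The submitters' processing notes name bcl2fastq 1.8.4, TopHat2 2.1.0, Bowtie2 2.2.4, HTSeq 0.6.1 and the build mm9. How reads were assigned to strands, which annotation was used and what became of multi-matching reads was not given in the sources used here, so antisense pairs cannot be told apart. RefSeq tables of GRCm38.p6 gave promoter and microRNA sequences and the order of neighbouring genes.

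Groups came from the sample titles. In R 4.3.3, genes were kept with filterByExpr of edgeR 4.0.16, scaled with TMM factors, and fitted with the robust quasi-likelihood test to the samples of each pair of groups alone, without further covariates. Adjusted p-values (Benjamini-Hochberg) cover all genes tested, and the threshold was 0.05. CPM values use TMM factors over all 15 libraries. Counting intervals (95%) and floors (3 counts) cover counting error only. Libraries of a group differed by a chi-square per degree of freedom of at least 26.3, so none was treated as a repeat.

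The members and all lists were chosen with earlier results of these data known. Besides the members, the text names listed genes past the threshold between tumour groups. From each comparison with normal liver it names up to 3 of each list with the smallest p, and it names some genes at 0 in a whole group. It also names some neighbours past the threshold and the 2 genes most like each member. Other genes, Mirg and Zhx2 among them, were chosen after their values were seen or for their role, and not all are marked so where they are named. Of 63 other imprinted genes listed, 62 were in the table, 4 of them with no count.

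Tested on simulated counts, edgeR recovered 44% of 2-fold and 86% of 4-fold changes between the tumour groups (13364 genes simulated). The shares were 39% and 79% when floxed tumours were set against normal liver (13668 genes) and 25% and 71% when Hmgb1-deleted tumours were (13656 genes). Alternatives were RLE, upper-quartile and no scaling factors, no filter, DESeq2 1.42.0, all 15 samples in 1 fit, the replicate number as a block, each library left out in turn, and Hmgb1-deleted tumours 2 and 5 or 3, 4 and 6 left out. Added after seeing the data were a fit limited to numbers 1 to 3 that had no block, bounds on folds with single libraries left out, and gaps between libraries on the log2 scale.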

Additional observations from a re-analysis of the deposited data

Results flagged for a closer look

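In 7 of 20 sets of 6 tumours (10 genes in each tumour kind), a single library stood further from its nearest neighbour than Dixon's critical value of 0.625 allows, which chance does in about 1 set in 20 where values are independent and normally distributed. These sets share libraries, the members were chosen on these levels and CPM is skewed, so the number of such sets is not read as a result. On the log2(CPM + 0.5) scale, tried after seeing the data, 3 of 20 sets remained (H19, Dlk1 and Mest). Hmgb1-deleted tumours gave 3 of them. H19 was at 18.4 CPM in tumour 1, with the other 5 at 1.49 CPM or less. Zfp57 was at 47.9 CPM in tumour 5, and the next highest was tumour 6 at 24.7 CPM. Peg3 was at 142 CPM in tumour 5, and the next highest was tumour 2 at 40.2 CPM.

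Floxed tumours gave the other 4. Dlk1 was at 3.11 CPM in tumour 4, with the other 5 at 0.398 CPM or less. Meg3 was at 573 CPM in tumour 1, and the next highest was tumour 4 at 194 CPM. Mest was at 97.7 CPM and Grb10 at 54.0 CPM in tumour 5, the library with the highest summed stellate cell and fibroblast markers (1679 CPM). The 2 next highest levels were 12.2 CPM for Mest and 27.1 CPM for Grb10. Igf2, Cdkn1c and Igf2r had no such library in either tumour group.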

How the results depend on the processing

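Over the alternatives run, 513 of 529 log2 differences of the members moved from the main value by less than the spread between replicates (1 SD), 16 moved further, and none that passed as reported reversed. Peg3, which had not passed, turned to -2.79 between tumour groups and to -1.84 for Hmgb1-deleted tumours against normal liver without tumours 2 and 5. Both values were then past the threshold. Tumours 2 and 5 held the highest Peg3 levels of all libraries and the rest of their group the lowest. Leaving them out therefore set the direction in advance, and nothing is read from these calls. Of 1416 values for other named genes, 1252 kept their side of the threshold and 164 lost the call. Between tumour groups the count of changed genes was 1045 (598 higher, 447 lower). It was 1954 by DESeq2, 1629 with all 15 samples in 1 fit, and 589 to 1054 with a library left out, lowest without Hmgb1-deleted tumour 4. Without a scaling factor 982 were higher and 257 lower. For other imprinted genes the count of 3 became 5 without a scaling factor, 10 by DESeq2, 7 in the joint fit, 1 without Hmgb1-deleted tumours 2 and 5, and 5 without 3, 4 and 6. It was 1 to 4 with a library left out. The cause was not tested.

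For floxed tumours against normal liver, 6714 genes changed (3437 higher, 3277 lower), 4363 higher and 2509 lower with upper-quartile factors, and 4860 to 6966 with a library left out. For Hmgb1-deleted tumours against normal liver, 4787 changed, 2113 to 4912 with a library left out, lowest without normal liver 1. That count was 2227 without normal liver 2 and 3109 without normal liver 3. With 2492 higher and 2295 lower at first, upper-quartile factors gave 3390 and 1578, and no factor 2969 and 1062. The other imprinted genes numbered 21 and 13 in these comparisons, 17 to 23 and 4 to 14 with a library left out, and 8 in the joint fit for the latter. Relative to TMM, the median of all genes shifted on the log2 scale by 0.181 without a factor between tumour groups. It shifted by 0.175 with upper-quartile factors for floxed tumours, and by 0.154 (upper-quartile) and 0.282 (no factor) for Hmgb1-deleted tumours, against normal liver.

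The shared replicate numbers did not pair the samples. Same-numbered libraries correlated at -0.185 to 0.17 between tumour groups and at -0.037 to 0.105 and 0.024 to 0.119 for the comparisons with normal liver, and 2 of 6, 2 of 3 and 1 of 3 correlated best with their own number. With the number as a block, 860, 6579 and 3055 genes changed in the 3 comparisons, and 2, 22 and 9 other imprinted genes. The block keeps only numbers 1 to 3 against normal liver, and without the block those samples gave 6886 and 3679 genes.

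Members past the threshold numbered 1 to 2, 5 to 8 and 1 to 6 over the alternatives. The block moved the difference of Peg3 between tumour groups to -1.54. Igf2 and Dlk1 rest on few counts, so differences between their tumour groups below the spread of libraries were not detectable.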
